A study of Homo sapiens with 11 samples.

Results

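The genes described here encode some of the proteins that write, erase or read H3K4me3, H3K27ac and H3K27me3, or subunits of their complexes. These are the same 3 histone marks that were profiled in these cells. Deacetylases and acetyl-lysine readers are not in the set and are given among the partners. The regulators of the set were taken by name, whatever their level or chromatin, and number 39 of the 19645 protein-coding genes measured by RNA-seq. All 39 were found in both libraries. By role they are 6 core and 5 accessory genes of Polycomb repressive complex 2 (PRC2), 12 genes of Polycomb repressive complex 1 (PRC1), 1 H3K27 demethylase, 6 H3K4 methyltransferases with 3 shared COMPASS subunits, 2 H3K4 demethylases and 4 acetyltransferases.

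The cells were HK2, an immortalised line from the proximal tubule of the human kidney, kept in DMEM-F12 with serum, antibiotics and DMSO. There was 1 condition and no contrast of treatments or genotypes. Each mark had 2 ChIP-seq replicates and there were 2 RNA-seq libraries; input DNA and HiChIP libraries are left aside. Nothing in the labels says whether replicates came from separate cultures, so the spread between them may be technical.

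As background, PRC2 places methyl groups on H3K27 through EZH1 or EZH2, and PRC1 binds that mark through its CBX subunits and ubiquitinates histone H2A through RING1 or RNF2. The trithorax side methylates H3K4 through the KMT2 and SETD1 enzymes, and EP300 and CREBBP acetylate H3K27, so methyl and acetyl groups compete for that residue. In many tissues EZH2 is the form of dividing cells and EZH1 that of resting cells.

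The RNA-seq libraries held 5.67 and 5.52 Gb of aligned bases, as worked out from the deposited coverage and FPKM (fragments per kilobase of transcript, scaled to the number of mapped fragments). Replicates 1 and 2 of H3K4me3 held 29130 and 73942 peaks, those of H3K27ac 57761 and 38639, and those of H3K27me3 45924 and 32746, and within each mark the median width of replicate 1 was over that of replicate 2 (1166 and 435 bp, 1357 and 657 bp, and 1182 and 535 bp). Of 8 proximal tubule markers analysed here, 3 reached an FPKM of 1, with PAX8 highest at 100.2 and 104. Of 6 epithelial markers 5 did so, led by the keratin KRT8 at 179 and 184. The exception was the cadherin CDH1, at 0.210 and 0.283, whereas the cadherin CDH2, also on that list, had 59.3 and 59.7. None of 4 markers of other kidney cells reached an FPKM of 1, and SLC12A1 was listed at 0. The tubule label therefore rests on part of its markers in this line: GGT1 had 64.1 and 58.1 and SLC5A2 had 1.56 and 2.36, whereas CUBN, AQP1, SLC34A1 and ANPEP stayed under an FPKM of 0.5.

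Every one of the 39 regulators was expressed, at an FPKM of 1 or more in each library, against 58.8% of all protein-coding genes. Their median FPKM was 10.9, over the 3.32 of all protein-coding genes and close to the 11.1 of the 11549 genes that passed the same minimum. Mean FPKM ran from 1.89 for the acetyltransferase KAT2B to 79.7 for the histone-binding subunit RBBP7, and 32 of the 39 lay between 5 and 25. RBBP7, RBBP4, WDR5, RING1 and PHF19 were over 25, and only KAT2B and CBX7 were under 5. These levels are per length, so they can be set against each other within a library. In order of level, 24 of the 38 neighbouring pairs had overlapping libraries, so much of the middle of the order is not resolved by 2 libraries.

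The libraries were close for most of the set. The higher of both values was under 1.2 times the lower in 36 of the 39, and the exceptions were KMT2C, PCGF1 and PCGF5, whose ratios of library 2 to library 1 were 1.28, 0.779 and 1.26. The median absolute log2 ratio of library 2 to library 1 was 0.10 for the regulators and 0.13 for all genes that passed the minimum.

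**Figure D1:**
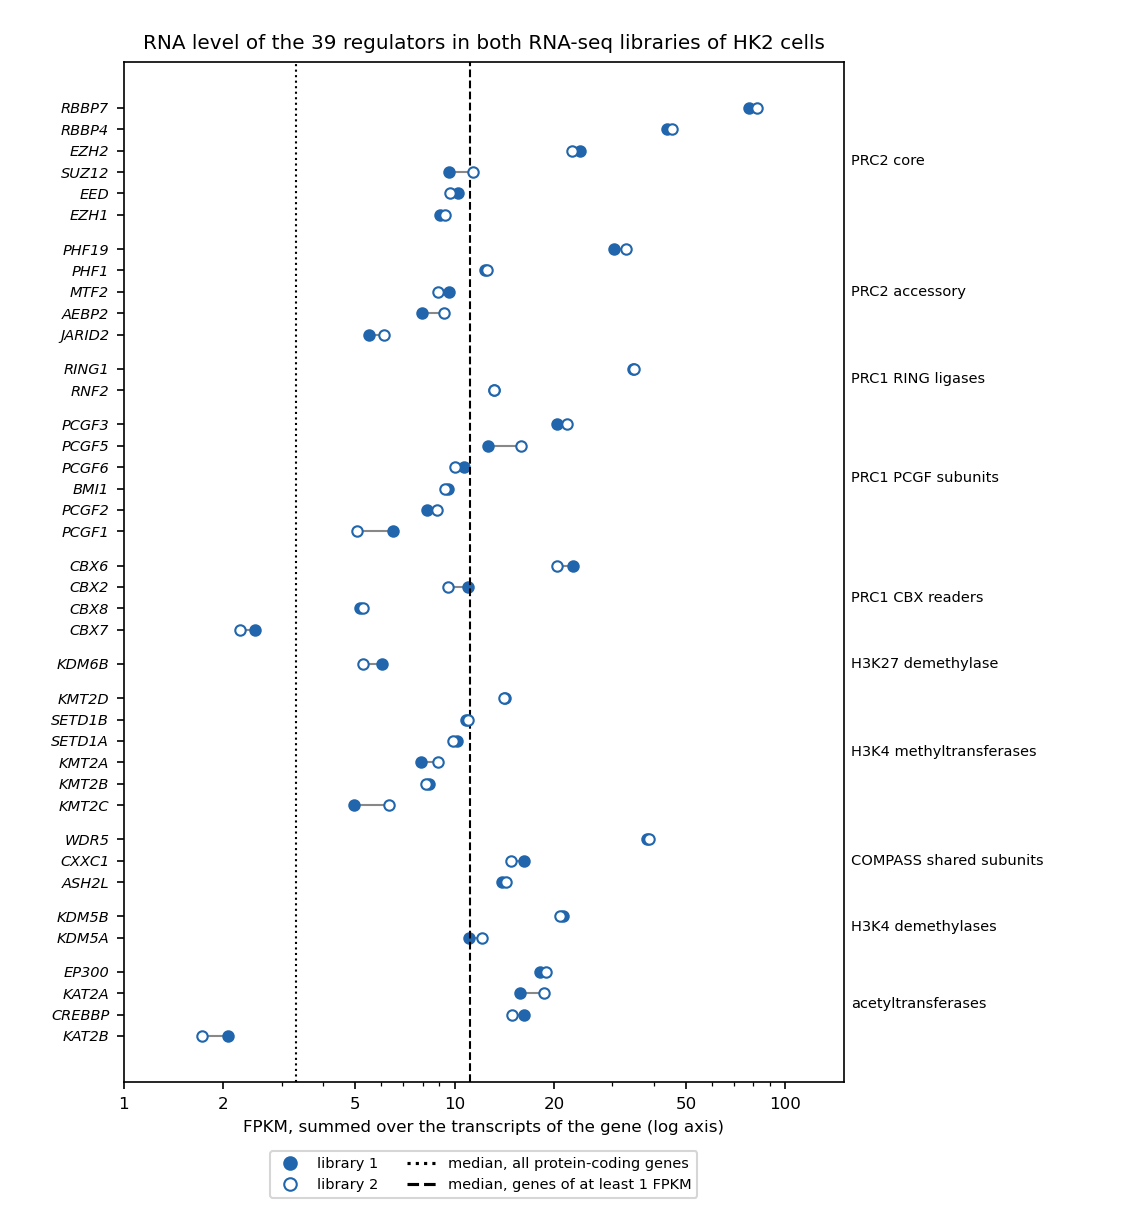
FPKM of each of the 39 genes on a log axis, grouped by role and ordered by mean within a role; filled circles are library 1 and open circles library 2, joined by a line. RBBP7 lies highest near 80, KAT2B and CBX7 lie lowest near 2, and most genes lie between the dotted line (median of all protein-coding genes, 3.32) and a little past the dashed line (median of genes that passed the minimum, 11.1).

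In the PRC2 core, the histone-binding subunits were higher than the catalytic and scaffold genes. RBBP7 had an FPKM of 77.3 and 82.1 in libraries 1 and 2, and RBBP4 had 43.8 and 45.3. Both proteins also serve in other chromatin complexes, among them deacetylase and chromatin assembly complexes, so their RNA is not a measure of PRC2 alone. EZH2, a catalytic subunit, had 23.9 and 22.6, and its paralog EZH1 had 9.02 and 9.36. EZH2 was thus 2.65-fold and 2.41-fold over EZH1, and the values of the genes did not overlap. EED, which binds the finished H3K27me3 mark, had 10.3 and 9.68, and SUZ12, the scaffold of the complex, had 9.62 and 11.4. EED and SUZ12 overlapped each other. How far the histone-binding subunits led depended on transcript length. With transcript FPKM weighted by length and divided by the longest transcript of the gene, an alternative added after the data were seen, RBBP7 had 37.4 and 39.4 and RBBP4 had 21.6 and 21.2, while EZH2 had 17.3 and 17.1.

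The EZH2 lead depended on which transcripts were counted. The most abundant EZH2 transcript in both libraries, EZH2-209 (6.89 and 7.80), is annotated as a target of nonsense-mediated decay, and protein-coding transcripts made up 52.3% of EZH2 against 69.3% of EZH1. On coding transcripts alone the mean log2 ratio of EZH2 to EZH1 was 0.92, and it was 1.33 on all transcripts, so EZH2 remained the higher of the pair at a smaller difference. Length-weighted levels gave 1.39.

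The accessory PRC2 genes steer the complex to its sites, and they fall into the Polycomb-like proteins PHF1, MTF2 and PHF19 and the pair JARID2 and AEBP2. PHF19 was the highest at 30.3 and 33.0. MTF2 had 9.59 and 8.89 and PHF1 had 12.4 and 12.6, so PHF19 was 3.42-fold and 2.53-fold over them on the means. In PHF1, however, the decay-annotated transcript PHF1-211 took 54.5% of the FPKM and coding transcripts 25.2%, the lowest coding share of the set. AEBP2 had 7.95 and 9.31. JARID2 was lowest of the group at 5.50 and 6.14. On coding transcripts PHF1, at 3.45 and 2.84, was under JARID2, at 5.48 and 6.05, so the place of lowest gene turns with the transcripts counted.

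Of the PRC1 RING ligases, which carry the ubiquitin ligase activity, RING1 had 34.6 and 34.8 and RNF2 had 13.1 and 13.1. Their ratio was the steadiest of those compared, at 2.63-fold and 2.65-fold in the libraries. The PCGF subunits, which sort PRC1 into its canonical and variant forms, were led by PCGF3 at 20.4 and 21.9, followed by PCGF5 at 12.6 and 15.9; both define variant complexes that lack a CBX reader. PCGF6 had 10.7 and 10.1. The canonical subunits BMI1 and PCGF2 were near each other, BMI1 at 9.57 and 9.34 and PCGF2 at 8.23 and 8.86. PCGF1, of the KDM2B-bound form, was lowest at 6.51 and 5.07. The order turned with the transcripts counted. On coding transcripts PCGF5 had 4.95 and 6.38, under BMI1, PCGF2 and PCGF6 in each library, PCGF6 being at 6.90 and 9.22. With length-weighted levels PCGF5 had 5.89 and 7.53, and PCGF3, at 9.64 and 10.9, overlapped PCGF6, at 10.1 and 9.69.

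The CBX readers were widely spread. CBX6 had 22.8 and 20.4, CBX2 had 11.0 and 9.54, CBX8 had 5.18 and 5.28, and CBX7 had 2.49 and 2.25. The 4 genes did not overlap, and CBX6 was 9.12-fold over CBX7 on the means. KDM6B, which removes methyl groups from H3K27, had 6.04 and 5.29 and a mean of 5.66, near those of CBX8 and KMT2C.

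The H3K4 methyltransferases were of middling level. KMT2D, a writer at enhancers, was highest at 14.2 and 14.1, but on coding transcripts it had 10.2 and 10.3, under SETD1B at 10.8 and 11.0. Its enhancer paralog KMT2C had 4.95 and 6.35, and KMT2C has near-identical partial copies elsewhere in the genome, so its share of reads is uncertain. The promoter writers SETD1B and SETD1A had 10.8 and 11.0, and 10.2 and 9.87. KMT2A had 7.92 and 8.93 and KMT2B had 8.40 and 8.19, values that overlap. Of the shared subunits that work with these enzymes, WDR5 had 38.1 and 38.7, ASH2L had 13.9 and 14.3, and CXXC1, the CpG-binding subunit of the SETD1 complexes, had 16.2 and 14.8. WDR5 was over every H3K4 methyltransferase, also on coding transcripts and with length-weighted levels. CXXC1 was over them on all transcripts, but on coding transcripts it had 5.29 and 5.22, under KMT2D, SETD1A, SETD1B, KMT2A and KMT2B. With length-weighted levels CXXC1 had 8.60 and 7.90, under SETD1A, SETD1B and KMT2D, the last at 10.4 and 10.4. For CXXC1 the coding share was 33.9%, and its most abundant transcript, CXXC1-214, is annotated as retaining an intron.

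Of the H3K4 demethylases, KDM5B had 21.2 and 20.8 and KDM5A had 11.1 and 12.1, with a mean log2 ratio of 0.86. That ratio was 1.19 on coding transcripts and 0.50 with length-weighted levels. Among the acetyltransferases, EP300 had 18.1 and 18.9 and its paralog CREBBP had 16.2 and 15.0, a small difference of 1.11-fold and 1.26-fold. KAT2A, the catalytic subunit of the SAGA and ATAC complexes, had 15.7 and 18.6. Its paralog KAT2B had 2.06 and 1.72. KAT2A was thus 7.62-fold and 10.8-fold over KAT2B. Its gap and that between CBX6 and CBX7 were the widest of the paralog pairs compared, and the order of these gaps differed between the libraries.

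The 39 genes were quantified as 345 transcripts. The most abundant one was protein-coding in 35 genes and was the canonical transcript in 26. The exceptions to coding were EZH2, PHF1, CXXC1 and PCGF5, and in PCGF5 a transcript with no defined coding sequence, PCGF5-202, took 46.0%. In 28 genes no transcript's share moved by 10 percentage points between the libraries, but in 5 genes a transcript moved by more than 20 while the gene total held. PCGF2 was the extreme. PCGF2-207, its canonical transcript, had 7.70 in library 1 and 0.00647 in library 2, while PCGF2-204 had 0.0896 and 4.23 and PCGF2-202 had 0.0325 and 4.08. The gene total differed by 1.08-fold over the same libraries.

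The other 4 were smaller cases of the same kind. KDM5B-202 had 19.4 and 12.2 and KDM5B-201 had 0.0192 and 7.51. PCGF6-203, which has no defined coding sequence, had 3.75 and 0.793, while the coding PCGF6-201 was listed at 0 and had 1.64. EED-201, the canonical transcript, had 0.548 and 2.90. SUZ12-204 had 6.39 and 5.27 and SUZ12-201 had 3.09 and 5.92. The split among transcripts of these 5 genes is therefore less well determined than their totals, which is why genes are compared here by totals.

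**Figure D2:**
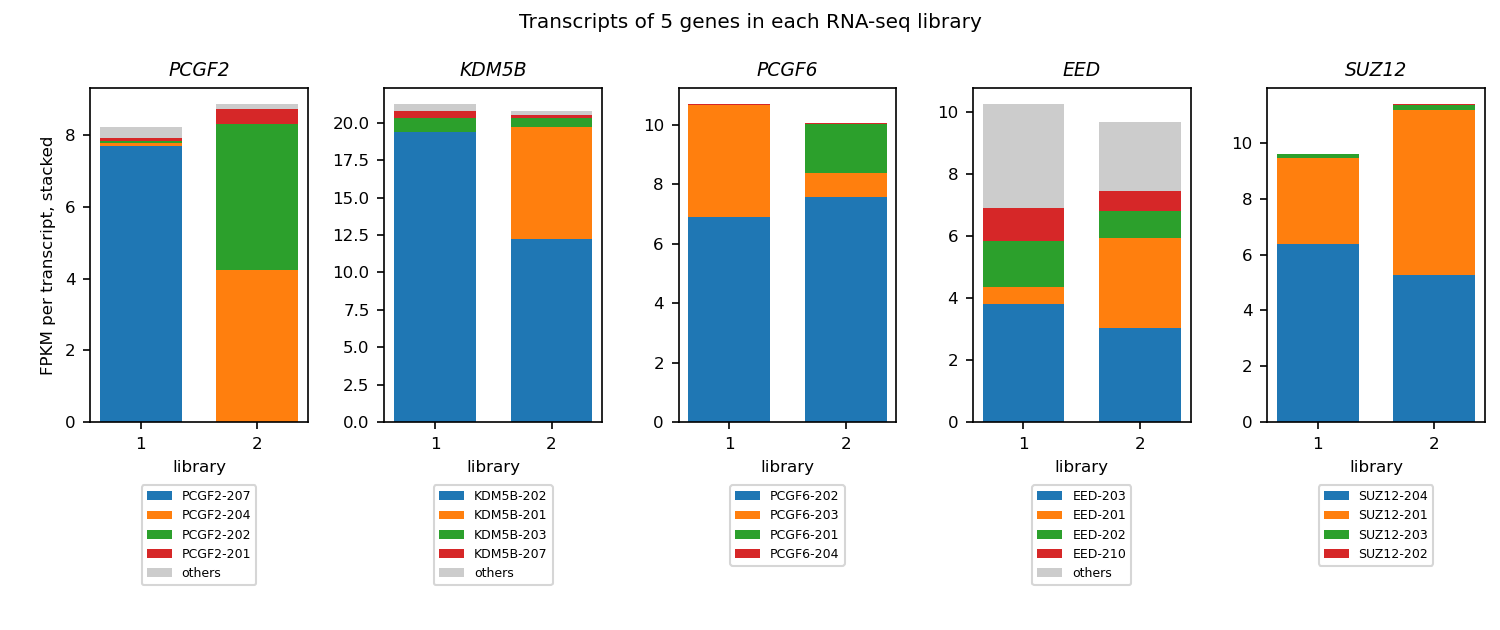
Stacked FPKM of the 4 most abundant transcripts and of the others for PCGF2, KDM5B, PCGF6, EED and SUZ12, with a bar for each RNA-seq library and a separate linear axis for each gene. The bar heights are near each other within a gene while the colours change, most of all in PCGF2, where PCGF2-207 fills library 1 and is nearly absent from library 2.

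For chromatin, peaks were counted when they touched the 1 kb on either side of any annotated start site (TSS) of a gene. H3K4me3, the promoter mark, was found at all 39 genes in both replicates, against 70.3% of all protein-coding genes and 97.3% of those that passed the FPKM minimum. The share of the regulators is thus near that of other expressed genes. H3K27ac, which marks active promoters and enhancers, was found at 39 in replicate 1 and at 35 in both replicates, against 55% of all and 84.6% of expressed genes. The 4 genes without it in replicate 2 were CBX2, CBX7, CXXC1 and KAT2B, of which CBX7 and KAT2B also had the lowest RNA of the set. Replicate 2 held fewer H3K27ac peaks, and the part of that difference in these 4 absences was not tested.

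A promoter was called active when H3K4me3 and H3K27ac were present in both replicates and H3K27me3 was not. By that rule 33 of the 39 genes had an active promoter, against 52.2% of all and 82.2% of expressed genes. All 11 PRC2 genes, both RING ligases, KDM6B, all 6 H3K4 methyltransferases and both H3K4 demethylases were active. The 6 that were not were CBX2, CBX7, CXXC1 and KAT2B, for want of H3K27ac, and BMI1 and CBX8, which carried H3K27me3.

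**Figure D3:**
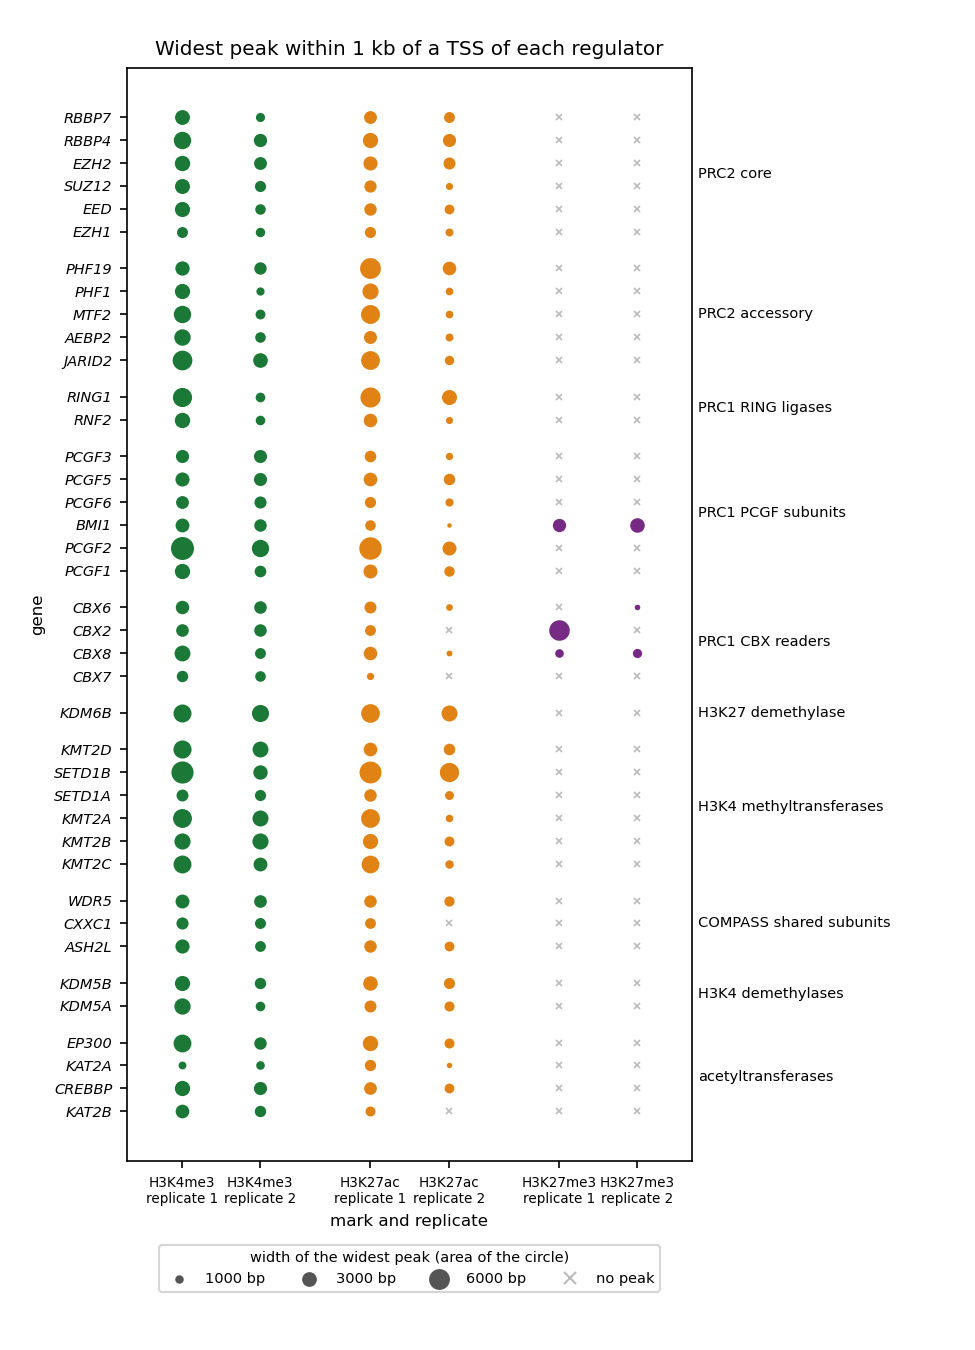
Widest peak touching the 1 kb on either side of a TSS for each gene (rows, by role) and each mark and replicate (columns); the area of a circle is proportional to the width in bp and a grey cross means no peak. The H3K4me3 columns and H3K27ac replicate 1 are full, H3K27ac replicate 2 lacks 4 genes, and H3K27me3 appears only in rows of the PCGF and CBX groups.

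H3K4me3 peaks at the regulators were wider at the median than at other genes. The widest peak per gene had a median of 3194 bp in replicate 1 and 2034 bp in replicate 2, against 2447 and 1535 bp over expressed genes and 2300 and 1403 bp over all protein-coding genes with a peak. PCGF2 had the widest, at 7297 and 4147 bp, followed in replicate 1 by SETD1B at 6796 and 2869 bp and JARID2 at 5366 and 2972 bp. KDM6B had 4487 and 4062 bp, and KMT2A 4935 and 3545 bp. RING1 was broad in 1 replicate only, with 5085 and 1292 bp. With the canonical TSS alone in place of all TSSs, the median of the 2 replicates' mean went from 2478 to 2477 bp. KAT2A had the narrowest peak in replicate 1, with 854 and 1029 bp, and PHF1 in replicate 2, with 3194 and 940 bp. The PHF1 values are of different peaks. The peak of 3194 bp lay 4842 to 8035 bp past the canonical TSS, and the TSS of the neighbour CUTA was 7093 bp from that TSS. Over the canonical TSS of PHF1 the peaks were 1585 and 940 bp.

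H3K27ac peaks were also wider at the median, with 2539 and 1329 bp at the regulators and 2184 and 978 bp over expressed genes. SETD1B had 6654 and 5127 bp, PCGF2 6956 and 2708 bp, PHF19 6001 and 2556 bp, and KDM6B 4826 and 3538 bp. The narrowest was CBX7 in replicate 1, at 720 bp, and BMI1 in replicate 2, at 273 bp. Width reflects how a replicate was called as well as the mark, so it was compared only within a replicate.

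H3K27me3, the mark that PRC2 itself writes, was found in both replicates at 2 of the 39 genes, BMI1 and CBX8, against 11.4% of all and 2.92% of expressed protein-coding genes. CBX2 had it in replicate 1 only and CBX6 in replicate 2 only. Within 2.5 kb of a TSS the mark was shared by the replicates at 4 genes, BMI1, CBX2, CBX7 and CBX8, against 13.6% of all and 4.05% of expressed genes. These are 4 of the 12 PRC1 genes and 0 of the other 27 regulators, 3 of the 4 being CBX readers. CBX2 and CBX8 are neighbours on chromosome 17, with canonical TSSs 18929 bp apart, so they are not independent cases. The count rests on the window: within 500 bp of a TSS, or at the canonical TSS only, BMI1 alone had the mark in both replicates, and accepting either replicate gave 4 genes. At the other 35 regulators the nearest H3K27me3 peak lay a median of 68971 bp from a TSS in replicate 1 and 75338 bp in replicate 2. These 35 include CBX6, at 854 bp in replicate 2, and KAT2B, at 3645 bp in replicate 1. The same distance was not worked out over all protein-coding genes, so the medians cannot be called far or near.

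At all 4 genes H3K27me3 lay beside the H3K4me3 of the promoter, with overlaps at some edges, and not over the canonical TSS. BMI1 (ENSG00000168283, plus strand) lies at chr10:22610028-22620413 of GRCh37. Its H3K27me3 peaks, chr10:22611021-22613452 in replicate 1 and chr10:22610594-22613531 in replicate 2, sat inside the gene, from 993 and 566 bp past the canonical TSS. They spanned most of the gap between H3K4me3 over that TSS and a further H3K4me3 peak from 3989 and 4162 bp past it. The H3K4me3 over the canonical TSS reached 1679 and 1385 bp past it, so the marks overlapped there in each replicate. The annotated start of a minor transcript, BMI1-203 (0.352 and 0.290), lay under both marks in both replicates. H3K27ac over the canonical TSS was 1543 and 273 bp wide.

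CBX8 (ENSG00000141570, minus strand) lies at chr17:77765931-77775482. Its shared H3K27me3, chr17:77772983-77774015 and chr17:77772875-77774060, was upstream of the canonical TSS but inside the annotated extent of the gene, 853 and 745 bp from the nearest alternative TSS. It too had H3K4me3 on either side in both replicates. CBX2 (ENSG00000173894, plus strand, chr17:77751947-77761782) had a block of 5839 and 2709 bp ending 843 and 1544 bp upstream of the TSS. CBX7 (ENSG00000100307, minus strand, chr22:39516172-39548685) had small peaks of 636 and 663 bp starting 1396 and 1242 bp upstream. BMI1 and CBX2 had RNA near the middle of the set, at means of 9.45 and 10.3, whereas CBX8 and CBX7 had means of 5.23 and 2.37.

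**Figure D4:**
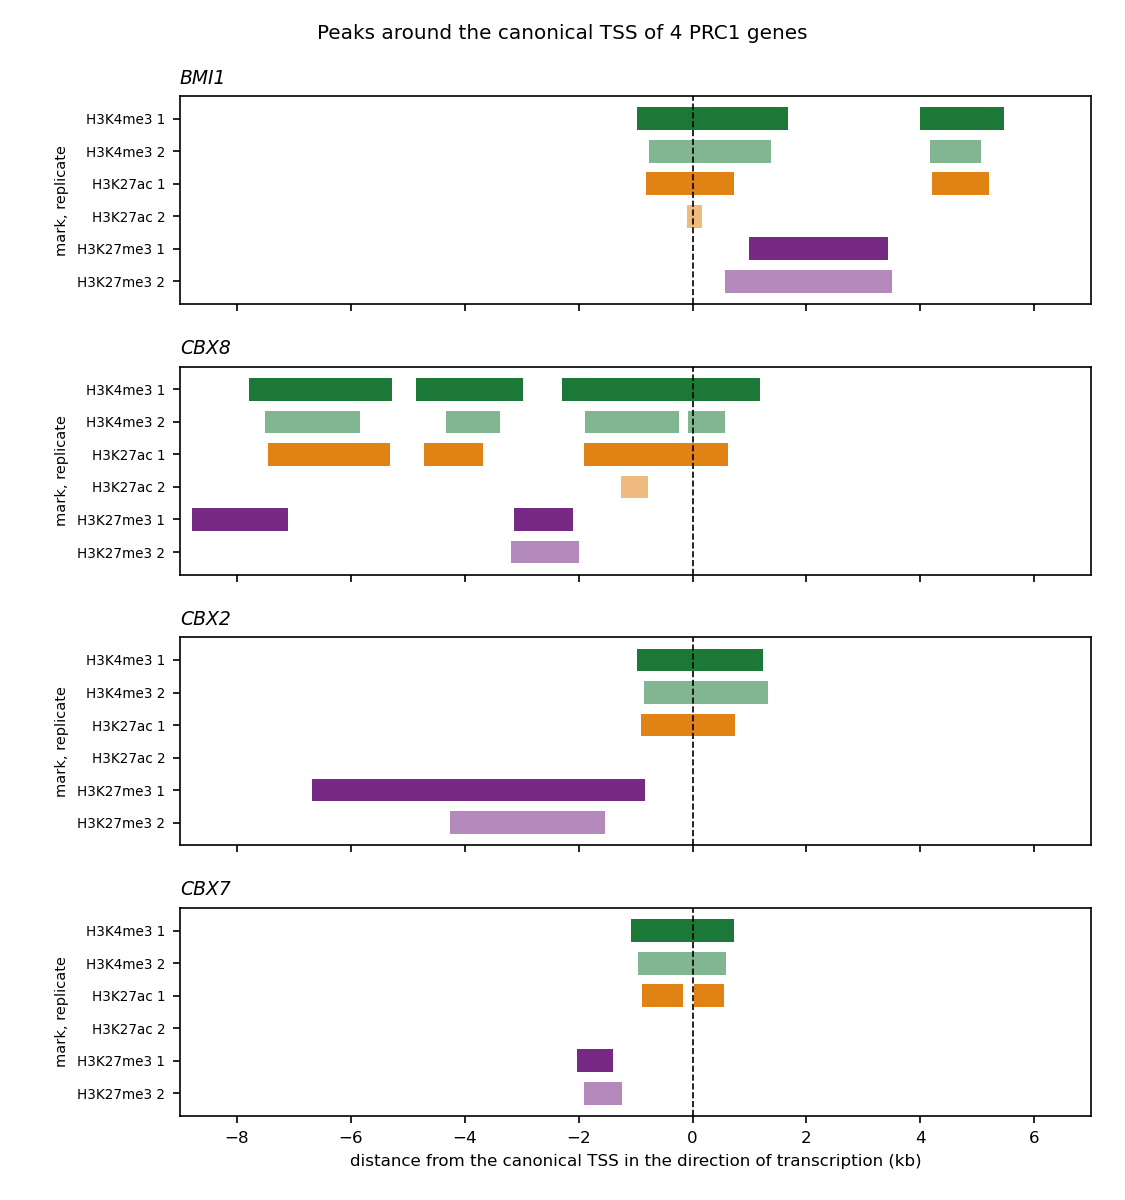
Peaks within 2.5 kb of any TSS of BMI1, CBX8, CBX2 and CBX7, drawn to scale by distance in kb from the canonical TSS (dashed line) in the direction of transcription; dark bars are replicate 1 and pale bars replicate 2. H3K27me3 (purple) lies downstream of the TSS in BMI1 and upstream in CBX8, CBX2 and CBX7, next to H3K4me3 (green), and H3K27ac (orange) is absent from replicate 2 in CBX2 and CBX7.

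BMI1 overlaps an annotated read-through gene, COMMD3-BMI1, which was listed at 0 in both libraries, while the upstream gene COMMD3 had 10.3 and 11.2. Whether the counting used strand is not given in the sources used here.

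The base composition under the marks differed as well. To show it, 150 bases are printed for the promoters of the H3K27me3-flanked BMI1, CBX8 and CBX7, of the gene of highest RNA (RBBP7) and of the gene of lowest RNA (KAT2B). They end at the base before the canonical TSS and were read 5′ to 3′ on the gene's strand from GRCh37, with the dinucleotide CG in capitals. None of them covers an exon of an annotated transcript of a protein-coding gene, and exons of other genes were not checked. The positions are chr10:22609878-22610027 for BMI1, chr17:77770877-77771026 for CBX8, chr22:39548686-39548835 for CBX7, chrX:16888486-16888635 for RBBP7 and chr3:20081788-20081937 for KAT2B.
BMI1 promoter: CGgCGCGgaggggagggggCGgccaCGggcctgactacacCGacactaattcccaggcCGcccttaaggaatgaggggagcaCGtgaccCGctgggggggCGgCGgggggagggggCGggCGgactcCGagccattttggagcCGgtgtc
CBX8 promoter: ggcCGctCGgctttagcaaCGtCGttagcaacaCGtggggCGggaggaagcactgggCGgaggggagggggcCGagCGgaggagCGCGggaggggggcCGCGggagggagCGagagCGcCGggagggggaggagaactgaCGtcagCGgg
CBX7 promoter: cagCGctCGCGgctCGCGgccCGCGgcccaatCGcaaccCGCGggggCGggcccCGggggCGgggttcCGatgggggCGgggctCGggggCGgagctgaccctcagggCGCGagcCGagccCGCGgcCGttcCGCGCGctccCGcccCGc
RBBP7 promoter: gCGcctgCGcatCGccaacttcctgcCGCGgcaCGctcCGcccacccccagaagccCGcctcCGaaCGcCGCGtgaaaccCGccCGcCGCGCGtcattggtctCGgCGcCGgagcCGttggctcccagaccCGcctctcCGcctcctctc
KAT2B promoter: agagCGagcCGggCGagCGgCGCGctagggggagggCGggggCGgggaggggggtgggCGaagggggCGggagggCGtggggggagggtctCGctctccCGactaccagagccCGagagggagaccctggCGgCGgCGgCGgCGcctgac

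These runs hold 15 CpG in BMI1, 18 in CBX8, 28 in CBX7, 23 in RBBP7 and 19 in KAT2B, so the genes of highest and of lowest RNA have promoters of similar CpG content. The centres of the H3K27me3 stretches covered by both replicates, printed in the same way, are at chr10:22612161-22612310 in BMI1 and chr17:77773424-77773573 in CBX8.
BMI1 H3K27me3 centre: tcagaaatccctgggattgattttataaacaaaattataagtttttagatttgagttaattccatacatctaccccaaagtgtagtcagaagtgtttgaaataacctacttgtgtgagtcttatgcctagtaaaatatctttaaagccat
CBX8 H3K27me3 centre: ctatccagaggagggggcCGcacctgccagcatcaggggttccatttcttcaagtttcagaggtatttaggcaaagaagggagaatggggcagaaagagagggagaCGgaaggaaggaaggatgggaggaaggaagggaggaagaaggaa

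The BMI1 run has 0 CpG and the CBX8 run has 2, and neither touches an exon of a protein-coding gene. Over the whole stretches shared by the replicates, H3K27me3 had 1.40 CpG per 100 bases at BMI1, 4.65 at CBX8, 1.77 at CBX2 and 0.98 at CBX7. The H3K4me3 stretches of the same 4 genes had between 7.10 and 13.1. Over all peaks of the lists the medians were 0.780 and 0.973 for H3K27me3 and 3.75 and 3.12 for H3K4me3 in replicates 1 and 2. CBX8 was therefore the richest of the 4 in CpG under H3K27me3. Its stretch lies between H3K4me3 blocks less than 1 kb away, but so does that of BMI1, which had 1.40.

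**Figure D5:**
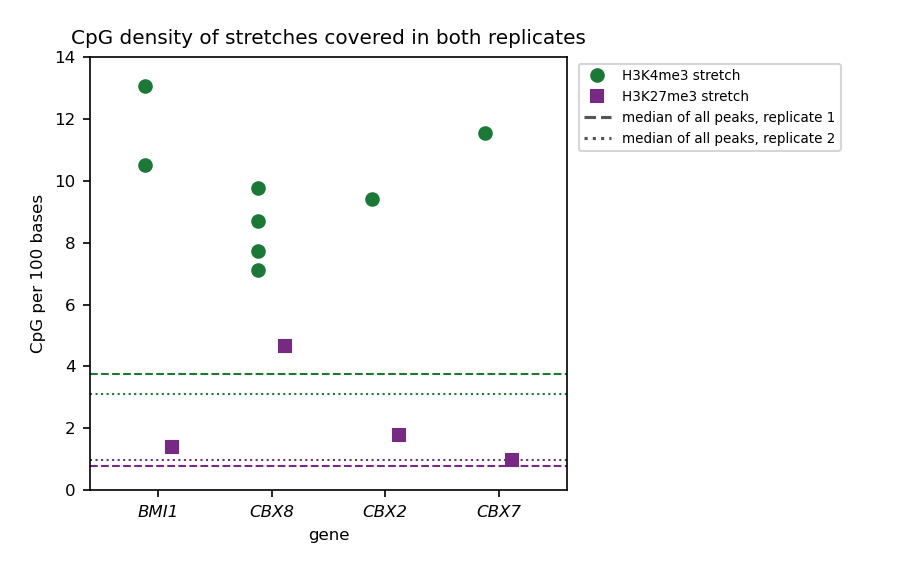
CpG per 100 bases in stretches that both replicates covered with H3K4me3 (green circles) or H3K27me3 (purple squares) at BMI1, CBX8, CBX2 and CBX7; horizontal lines are the medians over all peaks of the mark (green and purple) in replicate 1 (dashed) and replicate 2 (dotted). Every H3K27me3 stretch lies under the H3K4me3 stretches of its gene, and all H3K4me3 stretches lie over the H3K4me3 medians.

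The promoters of the regulators were rich in CpG as a group. In the 300 bases from 250 before to 50 after the canonical TSS, 36 of 39 (92.3%) met a CpG island criterion, with GC of at least 50% and an observed to expected CpG ratio of at least 0.6, against 66.0% of 19547 protein-coding promoters. The exceptions, PHF1, PCGF1 and PCGF2, had ratios of 0.53, 0.54 and 0.57. The median was 35 CpG against 23 over all promoters, from 14 in PCGF1 to 57 in CBX2.

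Short motifs were searched on both strands of the same windows, and none of the motifs contains another. GGGCGG, the GC box bound by SP factors, was present in 79.5% of the regulators and 61.8% of all promoters. CCAAT was present in 25.6% and 36.0%, CCGGAAG, an ETS core, in 5.13% and 14.2%, GCATGCGC, an NRF1 core, in 5.13% and 4.28%, and CACGTG, an E-box, in 15.4% and 8.82%. TATAAA was present in 1 regulator, JARID2, which is 2.56% against 9.59%. Only RBBP4 had a neighbouring coding TSS within 1 kb, that of ZBTB8OS on the opposite strand at 658 bp, which is 2.56% of the regulators against 12.9% of all protein-coding genes.

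The annotated start sites of the most abundant transcripts mostly lay under H3K4me3. Use of start sites was not itself measured, and the choice of transcript rests on the split among transcripts. For 36 of the 39 genes the TSS of the most abundant transcript was inside an H3K4me3 peak in both replicates, against 85% of the genes that passed the FPKM minimum, and for 0 of the 39 was it inside an H3K27me3 peak. The exceptions were KDM6B-201, KMT2C-205 and PCGF3-213, which had no peak of any mark at their TSS. Each of those genes had H3K4me3 at another of its TSSs.

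Inside the genes and more than 1 kb from any TSS, H3K27ac peaks were found in both replicates in 5 regulators, JARID2, PHF19, RNF2, PCGF5 and KMT2D, which is 12.8% against 22% of all and 26.9% of expressed protein-coding genes. In JARID2, RNF2, PCGF5 and KMT2D a peak of replicate 1 overlapped a peak of replicate 2, once in each gene. In PHF19 they did not overlap. Replicate 1 alone gave 17 such genes (43.6%, against 47.3% of expressed genes) and replicate 2 alone gave 7 (17.9%, against 29.1%), so this count depends on the replicate.

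The partners of these complexes were likewise expressed with few exceptions in their promoter marks. Of 46 further genes listed for PRC1, COMPASS, deacetylase, acetyl-lysine reader and H2A deubiquitinase complexes, 44 were analysed here. All 44 reached an FPKM of 1 in each library, against 58.8% of all protein-coding genes. All 44 carried H3K4me3 in both replicates, 40 had H3K27ac in both, and 38 had an active promoter. Over expressed protein-coding genes those shares were 97.3%, 84.6% and 82.2%. H3K27me3 within 1 kb was shared by the replicates at 2, PHC2 and BRD3, against 2.92% of expressed genes. PHC2 and BRD3 also carried H3K4me3 and H3K27ac. PHC2, a PRC1 subunit that links complexes together, was the highest of 14 PRC1 partners at 27.7 and 32.2, and SCML2 the lowest at 5.43 and 4.74. BRD3, an acetyl-lysine reader, had 14.7 and 14.8.

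Among the 10 COMPASS partners, the shared subunit DPY30 was highest at 35.3 and 36.4 and PAXIP1, of the KMT2C and KMT2D complexes, lowest at 9.43 and 7.64. The 11 deacetylase and corepressor genes were led by HDAC1 at 108 and 109.5, over every regulator of the set, and HDAC8 was lowest at 8.93 and 9.19. Of the acetyl-lysine readers BRD2 was highest at 77.5 and 74.2 and BRPF1 lowest at 10.2 and 8.65. ASXL1, a cofactor of the H2A deubiquitinase, had 41.6 and 43.5, and its paralog ASXL2 had 5.16 and 6.01.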

How the data were processed

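ChIP-seq of H3K4me3, H3K27ac and H3K27me3 and RNA-seq were analysed in HK2 cells. For ChIP-seq, the authors used Bowtie2 with hg19 and gave the reads that mapped uniquely to MACS2, separately for each replicate. The deposited lists give the chromosome and limits of each peak without score, p-value or counts, so the depth behind a peak is unknown. By library, the study does give the depth and the fraction of reads in peaks. That fraction was lower in replicate 2 for H3K27ac and H3K4me3, and it was lowest of the marks in both replicates of H3K27me3. For RNA-seq, of rRNA-depleted RNA by the study's methods, reads were mapped with HISAT2, and the authors deposited FPKM, TPM and coverage per transcript from StringTie 1.3.3. The methods name hg19 for this mapping, while the file headers name GENCODE version 27 on GRCh38, so genes were joined to GENCODE version 44 on GRCh37 by Ensembl identifier only (55859 of 58243 matched).

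FPKM was summed over the transcripts of a gene, with a minimum of 1 in both libraries and, for log2 ratios, a pseudocount of 0.1. A peak counted when at least 1 bp lay within 1 kb of a TSS on the 24 main chromosomes. The 1 replicate of each mark without a number in the labels was taken as replicate 1 because the other is numbered 2. The overlap step was tested on simulated intervals. Python 3.11.15, numpy 2.4.6, pandas 2.3.3 and matplotlib 3.10.9 were used. With 1 condition and 2 libraries no test was run, so shares are set beside those of all protein-coding genes. The members and lists were chosen with earlier results of these data known. The text names every member and the highest and lowest gene of each partner list, with any that carried H3K27me3. It also names the highest gene of each marker list and defining markers listed at 0. The other tubule markers, CDH1 and CDH2 were named after their values were seen. So were the neighbours ZBTB8OS, COMMD3, COMMD3-BMI1, PSMB3, HSD17B8 and CUTA. Values of some marker genes are not reported here.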

Additional observations from a re-analysis of the deposited data

How the results depend on the processing

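No paired analysis was possible because no result comes from a test. H3K4me3 stayed at 39 genes under every window, TSS choice and use of the replicates tried, and H3K27ac at 35 to 39. The number with H3K27me3, 2 as reported, was 1 within 500 bp and 1 at the canonical TSS only, and 4 within 2.5 kb and 4 when either replicate sufficed; leaving out a ChIP-seq replicate gave 3 and 3. Active promoters numbered 32 to 36 over the alternatives. Gene-body H3K27ac, 5 as reported, gave 7 and 17 when a ChIP-seq replicate was left out. The median FPKM of 10.9 was 8.86 on coding transcripts, 9.31 with length-weighted levels, which were added after the data were seen, and 11.0 and 11.4 with an RNA-seq library left out; in TPM, which is another unit, it was 30.2. On coding transcripts the log2 ratio of EZH2 to EZH1 went from 1.33 to 0.92 and that of KDM5B to KDM5A from 0.86 to 1.19. With a pseudocount of 1, KAT2A to KAT2B went from 3.11 to 2.65 and RING1 to RNF2 from 1.39 to 1.34. With length-weighted levels, EP300 to CREBBP went from 0.24 to 0.53, RING1 to RNF2 from 1.39 to 1.45 and KDM5B to KDM5A from 0.86 to 0.50. The alternatives were run on the ratios EZH2 to EZH1, EP300 to CREBBP, KAT2A to KAT2B, RING1 to RNF2 and KDM5B to KDM5A. None of these changed direction, and the causes of the moves were not tested. Other pairs were not run as ratios, and among them PHF1 fell under JARID2 and KMT2D under SETD1B on coding transcripts. Peaks called at unequal number and width in the replicates, unknown depth per peak and 2 libraries limit all of these values. The unequal fractions of reads in peaks further limit the counts of marks.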
